A study of Mus musculus with 9 samples.

Results

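Histone genes encode the proteins that package DNA into nucleosomes. The clustered genes (Hist1 to Hist4 symbols) encode the core histones H2A, H2B, H3 and H4 and the linker histone H1, lie together in gene clusters, are known to be transcribed mostly while a cell copies its DNA, and mostly give mRNAs that end in a stem-loop in place of a poly(A) tail. The variant genes (here H2af and H3f3 symbols) mostly lie outside the clusters and mostly give polyadenylated mRNAs. They encode proteins such as H2A.Z, macroH2A and H3.3 that are placed into chromatin throughout the cell cycle. Members were all symbols of the deposited table that begin with Hist1h to Hist4h, H2af or H3f3, each read by its brightest probe. These were 74 of 25893 symbols, of which 63 were clustered and 11 variant, and all 74 were tested. The rule used names and brightness and no difference between the groups.

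The study measured whole-lung RNA of BALB/c mice at about 12 weeks of age on 9 two-colour Agilent arrays. Of these, 4 were labelled as single lungs of mice given PBS, the vehicle, and 5 as single lungs of mice challenged with ovalbumin (OVA), the antigen of a common allergic airway model in the mouse. The labels put a single lung in Cy5 and a pool made from the lungs of the PBS-treated mice in Cy3 on each array, so all arrays carried the same control pool, and the RNA had gone through 2 rounds of amplification. Headers of the table give channel numbers but no dye. The labels do not say which primer started the amplification, and how histone mRNAs without a poly(A) tail pass through it was not tested.

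The ratio used throughout is log2 of channel 2 over channel 1, the direction of the deposited log ratios, and a change is the mean ratio of the OVA arrays minus that of the PBS arrays. The single channels went against the labels. For the 18 H2A genes the summed intensity was 88.2 to 96.8 in channel 1 of the PBS arrays, 87.0 to 93.5 in channel 2 of the PBS arrays and 71.7 to 92.8 in channel 2 of the OVA arrays, but 36.0 to 45.0 in channel 1 of the OVA arrays, the channel labelled as the PBS pool. Channel 2 alone gave 2 genes of 25852 past the threshold (0.00774%, with 931 at an unadjusted p under 0.05). So "higher" and "lower" below describe the deposited ratio on the arrays labelled OVA. If channel 1 of those arrays holds the OVA lungs, their ratios turn in sign and both words exchange places, though not for every gene. The main counts are also given below by single channel and with the OVA ratios turned in sign. Of 12 lung epithelium markers, 9 were on the array and 6 were tested, among them 33.1 mean intensity for Hopx, a gene of alveolar type 1 cells, and 30.5 for Scgb3a2, a club cell secretoglobin. Total intensity per channel ran from 41721.8 to 43610, with array medians of 0.12 to 0.17, and intensities were stored in steps of 0.01. Mean intensity was under 0.1 for 24 of the 74 members, where 1 step is a large part of the value. Log ratios correlated at r = 0.71 to 0.82 between OVA arrays (10 pairs) and at r = -0.27 to 0.11 between PBS arrays (6 pairs), across probes, which are not independent replicates.

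Across the family, H2A genes were higher and H2B genes lower on the OVA arrays, although the histone octamer takes both in equal number. Of the 63 clustered genes, 21 were higher, 17 lower and 25 did not pass (limma, Benjamini-Hochberg adjusted p under 0.05 over all 25852 symbols). Of all symbols tested, 17.3% were higher and 23% lower, 40.2% in either direction. The median change of the clustered genes was 0.11 on the log2 scale, against -0.017 over all symbols. The median over a class hides its makeup, since 14 of 18 H2A genes were higher, while 12 of 16 H2B genes were lower. Among the other clustered genes, 2 of 6 H1, 3 of 11 H3 and 2 of 12 H4 genes were higher, and 1 of each type was lower. The OVA arrays lay all above the PBS arrays for 17 clustered genes and all below for 15, against 14.8% and 19.7% of all symbols. In bulk lung, a larger share of cells of a type and more RNA per cell cannot be told apart.

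**Figure D1:**
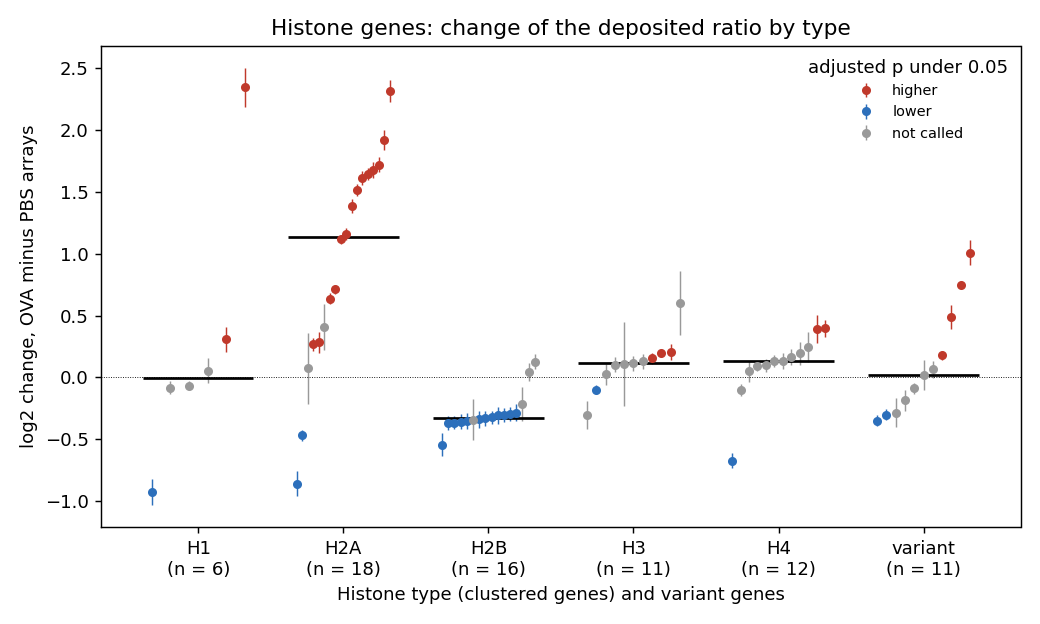
Change of the log2 ratio (OVA minus PBS arrays, y axis) for each of the 74 histone genes, ordered by size within a type on the x axis. Points are estimates with their SE, colours give the call at an adjusted p under 0.05, and black lines are medians, which stand at 1.14 for H2A and -0.33 for H2B.

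Several H2A genes sit head to head with an H2B gene and share the stretch of DNA between their start sites. RefSeq (GRCm38.p6) gave a window of 250 bases before to 50 bases after the start for 64 of the 74 members. The windows below are shown because 2 such pairs gave opposite calls over nearly the same DNA, with Hist1h1b as a linker histone gene of high change and H2afz as a variant gene for contrast. Capitals mark CCAAT and TATAAA, each searched on both strands. The octamer ATTTGCAT was searched in the same way and was found in none of the windows shown. In order, they lie at chr13:21787199-21787498 (minus strand, Hist1h2an), chr13:21787238-21787537 (plus strand, Hist1h2bp), chr13:23574131-23574430 (plus strand, Hist1h2ad), chr13:23574158-23574457 (minus strand, Hist1h2bf), chr13:21780576-21780875 (minus strand, Hist1h1b) and chr3:137864237-137864536 (plus strand, H2afz).
Hist1h2an: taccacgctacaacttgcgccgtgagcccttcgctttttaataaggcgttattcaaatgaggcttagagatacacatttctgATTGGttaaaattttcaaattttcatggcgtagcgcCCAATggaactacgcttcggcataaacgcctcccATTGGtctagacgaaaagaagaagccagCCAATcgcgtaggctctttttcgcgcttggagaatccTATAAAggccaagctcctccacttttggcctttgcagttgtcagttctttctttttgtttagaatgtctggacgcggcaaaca
Hist1h2bp: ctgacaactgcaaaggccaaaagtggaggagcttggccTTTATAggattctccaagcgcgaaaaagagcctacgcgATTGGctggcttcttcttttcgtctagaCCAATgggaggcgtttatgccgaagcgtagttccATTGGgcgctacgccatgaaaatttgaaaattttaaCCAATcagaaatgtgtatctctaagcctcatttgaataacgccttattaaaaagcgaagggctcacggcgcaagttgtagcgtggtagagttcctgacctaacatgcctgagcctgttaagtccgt
Hist1h2ad: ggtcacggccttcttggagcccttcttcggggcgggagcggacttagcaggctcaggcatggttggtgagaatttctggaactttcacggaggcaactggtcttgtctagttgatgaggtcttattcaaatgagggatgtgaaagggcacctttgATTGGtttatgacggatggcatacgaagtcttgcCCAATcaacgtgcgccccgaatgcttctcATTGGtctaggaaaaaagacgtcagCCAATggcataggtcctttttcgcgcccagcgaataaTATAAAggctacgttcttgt
Hist1h2bf: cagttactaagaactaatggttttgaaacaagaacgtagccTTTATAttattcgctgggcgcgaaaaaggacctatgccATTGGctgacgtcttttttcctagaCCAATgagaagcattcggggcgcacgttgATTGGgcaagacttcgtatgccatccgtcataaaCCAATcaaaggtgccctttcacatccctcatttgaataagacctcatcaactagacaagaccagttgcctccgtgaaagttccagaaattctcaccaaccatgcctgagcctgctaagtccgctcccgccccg
Hist1h1b: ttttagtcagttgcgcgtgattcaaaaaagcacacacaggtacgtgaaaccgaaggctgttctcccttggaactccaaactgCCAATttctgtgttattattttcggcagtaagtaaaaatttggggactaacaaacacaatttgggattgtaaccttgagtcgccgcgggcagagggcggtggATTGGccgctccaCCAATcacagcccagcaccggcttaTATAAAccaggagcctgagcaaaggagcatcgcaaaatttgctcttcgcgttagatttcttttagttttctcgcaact
H2afz: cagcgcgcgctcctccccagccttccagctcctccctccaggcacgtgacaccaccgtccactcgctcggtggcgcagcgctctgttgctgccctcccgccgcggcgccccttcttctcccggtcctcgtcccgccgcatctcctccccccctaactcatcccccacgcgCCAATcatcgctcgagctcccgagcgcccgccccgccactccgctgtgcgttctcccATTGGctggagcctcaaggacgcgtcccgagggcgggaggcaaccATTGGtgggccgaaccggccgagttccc

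All 17 H2A and all 13 H2B windows held CCAAT, against 37.4% of 32851 RefSeq windows of the same length. TATAAA was found in 64.7% of H2A and 61.5% of H2B windows (13.6% of all windows), and the octamer in 41.2% and 46.2% (1.74% of all). Head-to-head windows overlap, so those of a pair are not separate observations. CCAAT was in all 6 H1 and all 9 H3 windows and in 3 of 11 H4 windows, TATAAA in 4, 3 and 7 of them, and the octamer in none of these 3 types. Of the 8 variant windows 7 held CCAAT and 1 TATAAA.

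H2A genes carried the highest changes of the core histones. Hist1h2an (H2ac22 in RefSeq) had log2 ratios of 0.011, 0.087, -0.22 and 0.034 on PBS arrays 1 to 4 and 2.15, 2.37, 2.51, 2.26 and 2.18 on OVA arrays 1 to 5. Every OVA array lay far above every PBS array, and the change was 2.32 ± 0.091 (SE), a 4.98-fold higher ratio (adjusted p = 5.42e-07, limma). On the PBS arrays its intensity averaged 6.55 ± 0.274 (channel 1) and 6.46 ± 0.456 (channel 2; SD, n = 4), and on the OVA arrays 1.19 ± 0.174 (channel 1) and 5.86 ± 0.905 (channel 2; SD, n = 5), so that channel 1 of the OVA arrays stood apart from the rest.

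Hist1h2ab (H2ac4) gave ratios of 0.061, 0.054, -0.13 and 0.064 on the PBS arrays and 2.07, 1.72, 1.87, 2.00 and 2.00 on the OVA arrays, a 3.78-fold change (adjusted p = 6.38e-07, limma). Its channel 1 intensity on the OVA arrays averaged 0.056 ± 0.00894 (SD, n = 5), a few steps of the scale, so this fold is coarse. The next genes lay close to one another. For Hist1h2ao (H2ac24) the PBS arrays were at 0.0032, 0.091, -0.17 and 0.03 and the OVA arrays at 1.65, 1.66, 1.84, 1.69 and 1.70, and for Hist1h2ai (H2ac13) at 0.0083, 0.0087, -0.23 and 0.069 and 1.59, 1.59, 1.75, 1.64 and 1.65. Their changes of 1.72 ± 0.06 (SE) and 1.68 ± 0.064 (SE) differed by less than their errors. Hist1h2ao has a second, dimmer probe, whose change was 0.95.

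Some of the brightest members belong here as well. Hist1h2ad (H2ac7) read 0.032, 0.059, -0.13 and 0.033 on the PBS and 1.63, 1.62, 1.75, 1.62 and 1.60 on the OVA arrays, 1.65 ± 0.048 (SE) in all (adjusted p = 1.52e-07, limma). Hist1h2ag (H2ac11) read 0.039, 0.086, -0.16 and 0.059 and 1.54, 1.61, 1.71, 1.60 and 1.62, a 3.05-fold change (adjusted p = 3.36e-07, limma). In both genes PBS replicate 3 was the lowest array, as it was for 13 of the 18 H2A genes, and OVA replicate 3 the highest. Hist1h2ah, Hist1h2ak, Hist2h2ac and Hist2h2ab followed with changes of 1.51, 1.39, 1.16 and 1.12, Hist1h2al and Hist2h2aa2 with 0.71 and 0.64, and Hist1h2af and Hist1h2ae, the smallest called rises, with 0.28 and 0.27. RefSeq lists Hist1h2al as a pseudogene, and a second probe of Hist2h2ab, near the lowest intensities, had a change of -0.20 that did not pass. The coding sequences of these genes are near-identical, the probe sequences were not used here, and a probe may read several copies, so the genes are not independent measurements.

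The exceptions among H2A genes were few. Hist2h2aa1 (H2ac18) was lower, with ratios of -0.02, 0.048, -0.11 and -0.032 on the PBS and -0.52, -0.59, -0.46, -0.52 and -0.40 on the OVA arrays, a change of -0.47 ± 0.045 (SE) (adjusted p = 7.18e-05, limma), and its other 3 probes had changes of -0.41, -0.17 and -0.16. Its near-identical neighbour Hist2h2aa2 went the other way, at 0.037, 0.0075, -0.12 and 0.029 on the PBS and 0.67, 0.55, 0.70, 0.58 and 0.64 on the OVA arrays. After quantile normalisation of the ratios Hist2h2aa1 no longer passed (adjusted p = 0.0506, limma). Hist3h2a (H2aw) was also lower, at -0.86 ± 0.10 (SE) (adjusted p = 2.22e-04, limma), with ratios of 0.00, 0.00, 0.32 and 0.32 on the PBS and -0.49, -0.85, -0.68, -0.81 and -0.68 on the OVA arrays, but its mean intensity was only 0.0561. Hist1h2aa, a testis form (0.41 ± 0.19 (SE)), and Hist1h2ac (0.074 ± 0.29 (SE)) did not pass. With members of mean intensity under 0.1 left out, 14 of 15 H2A genes were higher and 1 lower, with a median of 1.39 against 1.14 over all 18. The median H2A ratio was 0.01, 0.03, -0.13 and 0.04 on the PBS arrays and 1.12, 1.11, 1.22, 1.1 and 1.15 on the OVA arrays.

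H2B genes were lower by small and like amounts, 12 of 16 passing and none higher, with a median of -0.33, or 1.26-fold. Probes of these genes may also read several copies, so the genes are not independent measurements. Their median ratio was -0.08, -0.09, 0.04 and 0.11 on the PBS arrays and -0.39, -0.36, -0.25, -0.39 and -0.32 on the OVA arrays, so the 2 sets did not overlap. The brightest H2B gene, Hist1h2bc (H2bc4), read 0.049, 0.10, -0.13 and 0.084 on the PBS and -0.38, -0.36, -0.12, -0.20 and -0.24 on the OVA arrays. Its groups overlapped, since OVA replicate 3 lay just above PBS replicate 3, and its change was -0.29 ± 0.069 (SE) (adjusted p = 0.0104, limma). Hist1h2bp gave -0.068, -0.084, 0.043 and 0.14 on the PBS and -0.44, -0.39, -0.25, -0.42 and -0.32 on the OVA arrays, with no overlap and a change of -0.37 ± 0.058 (SE) (adjusted p = 0.00108, limma).

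Hist1h2bj, Hist1h2bn, Hist1h2bh, Hist1h2bm, Hist1h2bk, Hist1h2bf, Hist1h2bl, Hist2h2bb and Hist1h2bb lay between -0.37 and -0.29, all called lower. The lowest value was that of Hist1h2ba, the testis H2B, at -0.54 ± 0.092 (SE), but its mean intensity of 0.0406 left it at a few steps of the scale, with ratios of 0.00, 0.32, 0.00 and 0.41 on the PBS and -0.32, -0.41, -0.32, -0.41 and -0.32 on the OVA arrays. Hist3h2ba (-0.34), Hist1h2bg (-0.21), Hist3h2bb (0.044), which RefSeq lists as a pseudogene, and Hist2h2be (0.13) did not pass. The H2B calls rest on the scaling: with quantile-normalised ratios none of the 16 passed and the median was -0.19, while 2043 symbols were higher and 1940 lower in all, against 4463 and 5937 without that step.

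The pairs that share an upstream region set both types side by side. A search within 1000 bases found 8 head-to-head pairs of an H2A and an H2B gene, all on chromosome 13, with starts 164 to 281 bases apart. In 6 of the 8 the H2A gene was higher and the H2B gene lower. Since a probe of either type may read several copies, the pairs are not independent observations. These were Hist1h2an with Hist1h2bp (starts 240 bases apart, changes of 2.32 and -0.37), Hist1h2ai with Hist1h2bl (1.68 and -0.31), Hist1h2ad with Hist1h2bf (1.65 and -0.32), Hist1h2ag with Hist1h2bj (1.61 and -0.37), Hist1h2ah with Hist1h2bk (1.51 and -0.33) and Hist1h2ak with Hist1h2bn (1.39 and -0.36). The pair of the testis forms gave 0.41, which did not pass, for Hist1h2aa and -0.54 for Hist1h2ba. Hist1h2ae was higher at 0.27, and its partner Hist1h2bg did not pass at -0.21. The sizes, not only the signs, differed between partners, since H2A changes in the 6 pairs ran from 1.39 to 2.32 and those of H2B from -0.37 to -0.31.

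**Figure D2:**
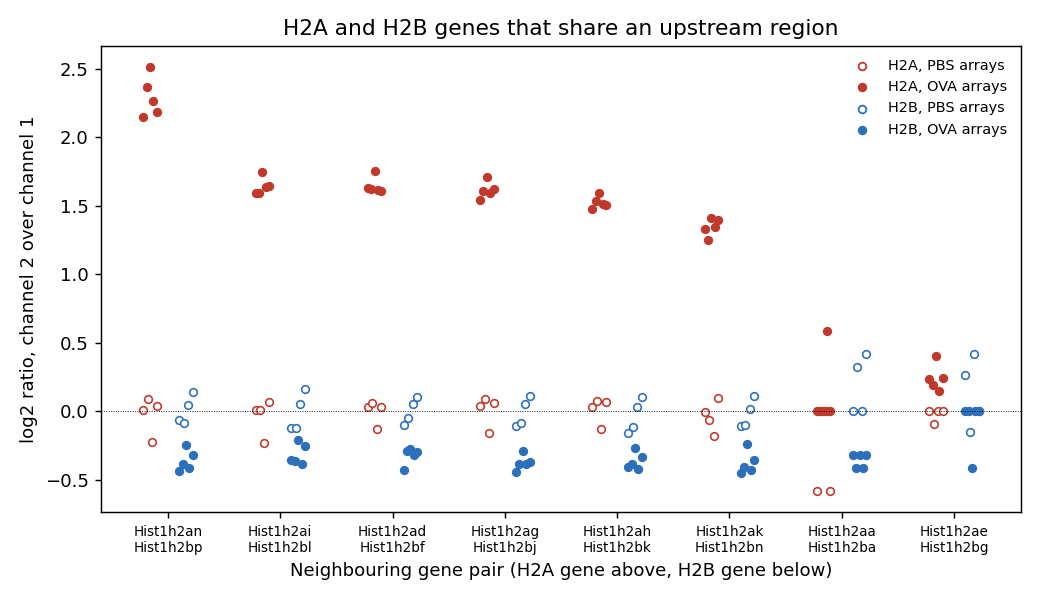
Log2 ratio of channel 2 over channel 1 (y axis) on each of 4 PBS arrays (open circles) and 5 OVA arrays (filled circles) for the 8 head-to-head pairs on the x axis, with the H2A gene in red and the H2B gene in blue. In 6 pairs the filled red circles lie above the open red circles, and the filled blue circles below the open blue circles.

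Linker histones held values at both ends of the clustered genes. The changes of Hist1h1b and Hist1h2an differed by less than their errors, as did those of Hist1h1e and Hist3h2a. Hist1h1b (H1f5), the linker histone H1.5, read 0.21, 0.14, -0.23 and 0.00 on the PBS and 2.66, 2.32, 2.66, 2.22 and 2.00 on the OVA arrays, a 5.08-fold change (2.35 ± 0.16 (SE), adjusted p = 9.45e-06, limma). On the OVA arrays its intensity averaged 0.0340 ± 0.00548 (channel 1; SD, n = 5), close to the lower end of the scale, and 0.176 ± 0.0251 (channel 2), so the fold there is coarse. Hist1h1e (H1f4) gave -0.22, 0.00, 0.36 and 0.00 on the PBS and -0.89, -0.81, -1.0, -0.87 and -0.89 on the OVA arrays, a change of -0.93 ± 0.10 (SE) (adjusted p = 1.70e-04, limma), at a mean intensity of 0.0883. Its second probe had a change of 0.0086 ± 0.54 (SE), and it no longer passed with the mean over both probes (adjusted p = 0.22, limma) or after quantile normalisation (0.0688). Hist1h1a was higher at 0.31 (adjusted p = 0.0398, limma), and the count of higher H1 genes fell to 1 when any of PBS replicates 2 and 3 or OVA replicates 2, 4 and 5 was left out. Hist1h1c, the brightest H1 gene, did not pass at -0.082 ± 0.054 (SE).

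H3 and H4 genes passed no more often than all symbols did. Of 11 H3 genes, 3 were higher, Hist1h3h (0.20), Hist1h3f (0.20) and Hist1h3c (0.15), and Hist1h3b was lower at -0.10, each less than 1.5-fold. The count of higher H3 genes fell to 1 without PBS replicate 1, PBS replicate 4 or OVA replicate 2, and that of lower H3 genes to 0 without any one PBS array or without OVA replicate 1, 2 or 3. Of 12 H4 genes, Hist1h4c (0.40) and Hist1h4a (0.39) were higher. Hist1h4h was lower, with ratios of 0.00, 0.00, 0.00 and 0.00 on the PBS and -0.81, -0.58, -0.58, -0.81 and -0.58 on the OVA arrays, at a mean intensity of 0.0489. The H4 count of higher genes was 1 without PBS replicate 2 or 3 and 4 without OVA replicate 3, and none of the 6 H4 genes of mean intensity 0.1 or more passed. Second, dimmer probes of Hist1h4m (0.66), Hist2h4 (-0.53) and Hist1h3d (-0.32) passed where the brightest probes, at 0.05, 0.13 and 0.027, did not. The median ratio of the OVA arrays was between 0.00 and 0.23 for H3 and between 0.13 and 0.18 for H4.

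Among variant genes, 4 of 11 were higher and 2 lower, with a median change of 0.021. The shares over all symbols were 17.3% higher and 23% lower. H2afz (H2az1), which encodes H2A.Z, a variant placed at promoters, read 0.044, 0.047, 0.082 and 0.017 on the PBS and 0.74, 0.85, 0.83, 0.78 and 0.77 on the OVA arrays. It was 1.68-fold higher (0.75 ± 0.029 (SE), adjusted p = 4.90e-07, limma). Channels 1 and 2 averaged 8.29 ± 0.238 and 8.57 ± 0.340 on the PBS arrays (SD, n = 4), and 4.98 ± 0.297 and 8.64 ± 0.551 on the OVA arrays (SD, n = 5). H2afv (H2az2), the second H2A.Z gene, had a smaller change, with -0.046, 0.048, -0.13 and 0.0085 on the PBS and 0.14, 0.18, 0.12, 0.14 and 0.17 on the OVA arrays and 0.18 ± 0.037 (SE) in all (adjusted p = 0.00487, limma, and 0.18 with quantile-normalised ratios).

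H2afx (H2ax) encodes H2A.X, which is phosphorylated around DNA double-strand breaks. Its ratios were -0.037, 0.16, 0.19 and -0.016 on the PBS and 1.28, 1.23, 1.03, 1.08 and 0.80 on the OVA arrays, 2.01-fold higher (1.01 ± 0.10 (SE), adjusted p = 9.88e-05, limma), with the OVA arrays more spread than those of H2afz. H2afy (Macroh2a1) encodes macroH2A1, known from the inactive X chromosome and silenced genes. It read 0.061, 0.039, -0.10 and 0.038 on the PBS and 0.16, 0.49, 0.58, 0.59 and 0.65 on the OVA arrays, with OVA replicate 1 well below the other OVA arrays but above the PBS arrays, and its change was 0.49 ± 0.10 (SE) (adjusted p = 0.00420, limma, and 0.0856 with quantile-normalised ratios).

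The 2 lower variant genes belong to the same macroH2A group. H2afy2 (Macroh2a2) read 0.00, -0.029, 0.053 and 0.027 on the PBS and -0.30, -0.24, -0.46, -0.37 and -0.30 on the OVA arrays, a change of -0.35 ± 0.045 (SE) (adjusted p = 3.48e-04, limma), while its other 2 probes had -0.10 and -0.27 and did not pass. H2afy3 (Macroh2a3), listed as a pseudogene in RefSeq, read 0.00, 0.00, 0.12 and 0.00 and -0.21, -0.25, -0.35, -0.32 and -0.21, with -0.30 ± 0.042 (SE) (adjusted p = 5.45e-04, limma).

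The H3.3 genes H3f3a and H3f3b, which encode the same protein, did not pass. H3f3a gave -0.23, 0.027, 0.19 and 0.15 on the PBS and -0.24, -0.19, -0.066, -0.10 and -0.16 on the OVA arrays, and PBS replicate 1 lay among the OVA arrays. Its change was -0.19 ± 0.085 (SE) (adjusted p = 0.124, limma), and without PBS replicate 1 it was -0.27 and passed (adjusted p = 0.00576). H3f3b was dim, at 0.00, 0.00, 0.41 and 0.00 on the PBS and 0.00, 0.00, -0.32, -0.32 and -0.26 on the OVA arrays. H2afj, the H2A.J gene, read -0.17, 0.00, -0.17 and 0.00 and -0.17, -0.15, -0.15, -0.19 and -0.19, with groups that overlapped. The testis genes H2afb1, at 0.00, 0.00, 0.00 and 0.00 and 0.00, 0.32, 0.00, 0.00 and 0.00, and H2afb2, at 0.00, 0.00, 0.00 and -0.41 and 0.00, 0.00, -0.41, 0.00 and 0.00, differed from 0 on at most 1 array a group.

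**Figure D3:**
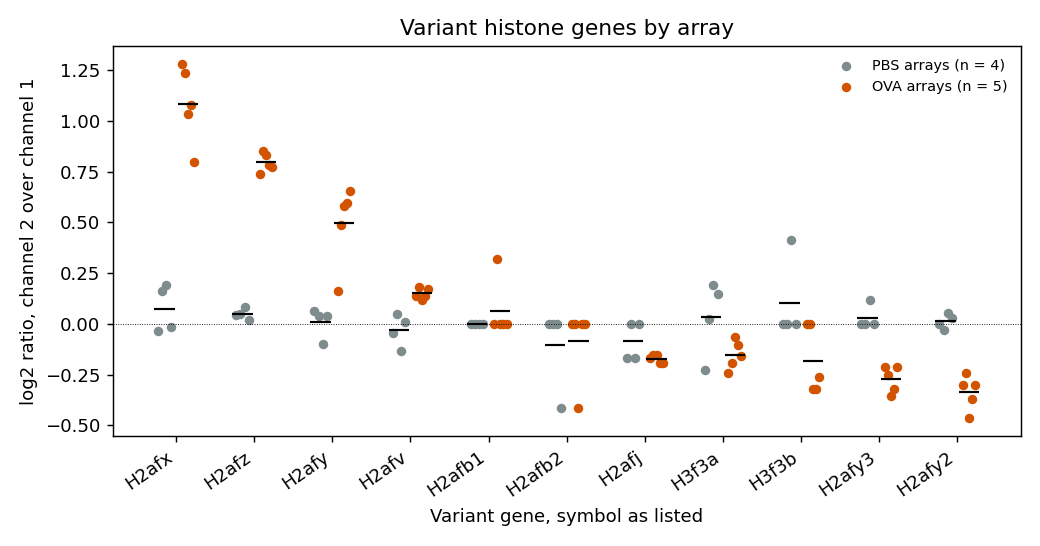
Log2 ratio of channel 2 over channel 1 (y axis) for the 11 variant genes on the x axis, ordered by change, on each of 4 PBS arrays (grey) and 5 OVA arrays (orange), with black lines at group means. H2afx, H2afz, H2afy and H2afv have every orange point above every grey one.

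Clustered and variant genes both held higher and lower members. Of the clustered genes 21 of 63 were higher and 17 lower, and of the variant genes 4 of 11 and 2. Over all symbols, 17.3% were higher and 23% lower. The difference between the classes was not tested, and clustered genes without H2A had 7 higher and 15 lower of 45, with a median of 0.044. Clustered genes reached at least 2-fold in 11 cases, 10 of them H2A and the other Hist1h1b, and H2afx was the one variant gene to do so, against 2.44% of all symbols that were higher at that size. At least 1.5-fold, 13 clustered and 2 variant genes were higher and 3 clustered genes lower, against 4.9% higher and 4.35% lower of all symbols. The deposited p-value per probe and array was under 0.01 on all 5 OVA arrays for 14 members, 11 of them H2A, 2 H1 and 1 variant, against 7.66% of all symbols, and on no PBS array for any member, against 0.669% of all symbols with at least 1 such array.

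The single channels place these differences in channel 1 of the OVA arrays. In channel 1 alone, 2 H2A genes were higher on the OVA than on the PBS arrays and 13 lower, with a median of -1.28, and 9 H2B genes were higher and none lower, with a median of 0.32. Of all symbols, 15.6% were higher and 12.0% lower in that channel. Over the classes, 13 clustered genes were higher and 16 lower, and 2 variant genes were higher and 3 lower. In channel 2 alone no member passed (limma, smallest adjusted p = 0.874), with 2 clustered genes and 1 variant gene at an unadjusted p under 0.05. With the OVA ratios turned in sign, 2 H2A genes were higher and 13 lower (median -1.14), 11 H2B genes were higher and none lower (0.33), and 17 clustered genes were higher and 21 lower and 3 variant genes higher and 4 lower, against 22.5% higher and 16.5% lower of all symbols. Turning the sign flips the OVA ratios of all genes alike but leaves the PBS ratios as they are. The calls did not simply swap, since H4 genes went from 2 higher and 1 lower to 2 higher and 5 lower.

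**Figure D4:**
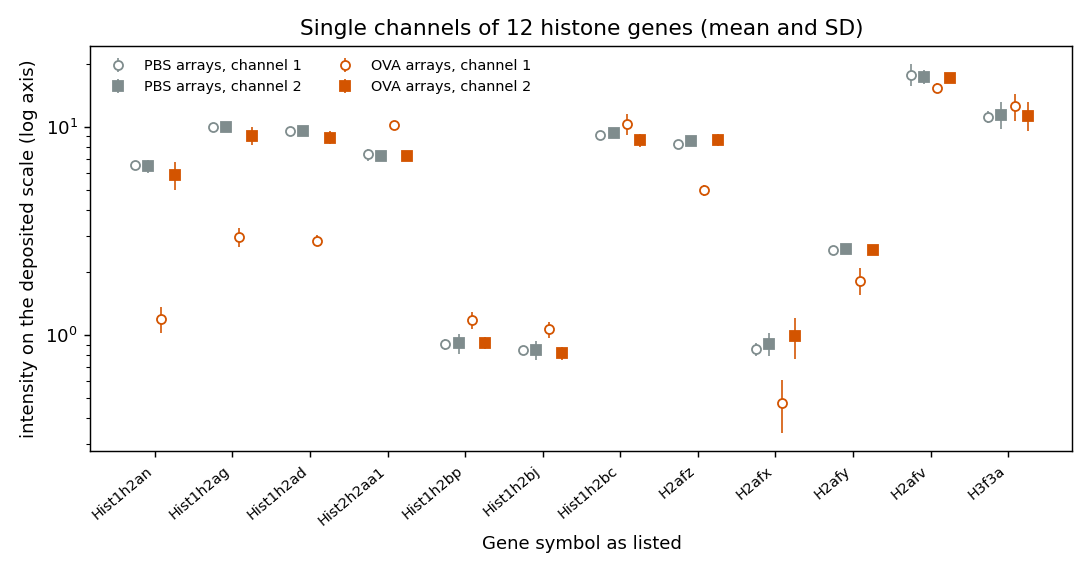
Intensity on the deposited scale (log axis) of 12 histone genes in channel 1 (open circles) and channel 2 (filled squares) of the PBS arrays (grey, n = 4) and the OVA arrays (orange, n = 5), as means with SD. For Hist1h2an, channel 1 of the OVA arrays is at 1.19, below the other 3 means of 5.86 to 6.55.

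Genes that copy DNA and divide the cell moved with the H2A genes in the deposited ratio. Of 43 DNA replication genes 40 were higher and none lower, with a median of 0.87, among them Tk1 (2.26), thymidine kinase, Ccna2 (2.85), cyclin A2, Rrm2 (3.10), a ribonucleotide reductase subunit, and Pcna (0.75), the replication clamp. All 24 mitosis genes tested were higher, with a median of 2.19, such as Pbk (3.12), a mitotic kinase, Cenpe (2.99), a kinetochore motor, and Aurkb (2.90), a kinase of chromosome segregation. The summed intensity of the mitosis genes was 29.2 to 31.7 in channel 1 of the PBS arrays, 5.38 to 6.47 in channel 1 of the OVA arrays, and 28.7 to 31.9 and 30.2 to 32.5 in channel 2 of the PBS and OVA arrays. Over all symbols, 17.3% were higher and 23% lower. None of the tested genes of these lists was listed at 0. Their part in the histone values was not tested.

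The factors that make and process histone mRNA did not move as a group. The counts here stand beside 17.3% higher and 23% lower of all symbols. Of 20 tested genes of 21, 6 were higher, 4 lower and 10 did not pass, with a median of 0.038. E2f1, a transcription factor of the S phase, was higher at 0.85, and Pou2f1 (Oct-1), which binds the octamer searched above, was lower at -0.43, as was Ncbp2 (-0.41), a cap-binding subunit. Npat, the coactivator of clustered histone genes, did not pass at -0.11. Slbp, the stem-loop binding protein, was not among the symbols listed for the probes, so it has no value here. Of 26 histone chaperone and exchange genes, 9 were higher, 5 lower and 12 did not pass, with a median of 0.038. Asf1b (1.98), Nasp (1.12) and Anp32e (0.79), which carry H3-H4, H1 or H3-H4, and H2A.Z, had the highest values. Of 6 histone genes that the symbols do not cover, Cenpa, the centromeric H3 variant, was higher at 1.02 and Hils1, a spermatid linker histone, at 0.29, and 4 did not pass.

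Markers of cells that a lung sample holds or can carry over also differed, beside 17.3% of all symbols higher and 23% lower. Of 11 leukocyte markers tested, 6 were higher, 1 was lower and 4 did not pass, with a median of 0.21. The highest were Itgax (2.74), an integrin of alveolar macrophages and dendritic cells, Mcpt8 (2.04), a basophil protease, and Csf1r (1.29), a macrophage receptor. The lower one was Siglec5, with a change of -1.075. The summed intensity of the 11 leukocyte markers was 40.4 to 41.5 in channel 1 of the PBS arrays and 14.8 to 16.5 in channel 1 of the OVA arrays. In channel 2 it was 40.3 to 41.1 on the PBS and 37.8 to 41.4 on the OVA arrays. Of 6 lung epithelium markers, 2 were higher and 4 lower, with a median of -0.28. Heart muscle genes (1 higher and 2 lower of 10) varied between PBS arrays, with array medians of -0.75 to 0.61. None of 10 skeletal muscle or 10 adipose genes passed, though the skeletal muscle median of single OVA arrays ran from -2.52 to 0.048. On the OVA arrays, summed skeletal muscle intensity was 1.47 to 36.4 (median 1.77) in channel 1 and 1.39 to 2.28 in channel 2. For heart genes it was 36.5 to 50.2 and 26.6 to 29.9, and for adipose genes 8.98 to 18.1 and 8.73 to 8.99. On the PBS arrays skeletal muscle gave 1.47 to 1.75 and 1.43 to 1.8. Heart gave 28.3 to 31.9 and 15 to 49.5 there, and adipose 8.53 to 8.99 and 5.54 to 14.4. Which RNA each channel holds was not tested. No tested gene of these lists was at 0, and their part in the histone values was not tested.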

How the data were processed

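Whole-lung RNA was hybridised to 9 two-colour Agilent arrays, 4 labelled PBS and 5 labelled OVA. Per the file headers, the 39464 probes of the deposited table have 3 columns an array: the intensity of either channel and a p-value. The deposited value table equals the log10 of channel 2 over channel 1 (r = 0.999999 to 1 on each array). Agilent Feature Extraction 8.5.1.1 is named per the submitters' processing notes. For the background and dye steps, the method is not stated in the labels or headers. No symbol was given, or it had become a date, for 9359 probes.

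Log2 ratios were computed from the intensities with no further normalisation. OVA and PBS arrays were compared with limma 3.58.1 in R 4.3.3 (two-sided, Benjamini-Hochberg over 25852 symbols with at least 2 values a group, adjusted p under 0.05), which was tested on simulated data. Symbols were read by their brightest probe. All variant genes are given by array; clustered genes are given by array for the 6 highest and 4 lowest changes and the 4 brightest, and for Hist1h2bp and Hist2h2aa2, chosen after their values were seen, and a few genes of each list by change. Members and lists were chosen with earlier results of these data known. Alternatives covered scaling, filters, probes, channels and left-out arrays. Symbols were matched to RefSeq for 73 of 74 members. Nothing says whether lungs came from separate cages or days, so p-values cover only the spread among these arrays, which may be technical, and the number of arrays limits the precision. Replicate numbers are shared by the groups. With group means removed, the deposited ratios of arrays of the same number correlated at r = -0.15 to -0.0020. These values would turn in sign with the OVA ratios, so they cannot say whether the numbers pair the arrays.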

Additional observations from a re-analysis of the deposited data

Results flagged for a closer look

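In 15 of 62 groups of arrays examined, 1 array stood apart from the others of its group by more than Dixon's critical value. For independent values on a continuous scale, chance alone marks about 5% of groups. These values come in steps, and the groups share arrays and like genes, so the count cannot be set against that rate. PBS replicate 3 was the array in 8 of them. It was the lowest of the PBS arrays for H2afy (-0.098, the others from 0.038), Hist1h2ab (-0.13, the others from 0.054), Hist1h2ad (-0.13, the others from 0.032), the H1 median (-0.091) and the H2A median (-0.13, the others from 0.011), and the highest for H2afy3 (0.12), H3f3b (0.415) and the variant median (0.053). OVA replicate 3 stood apart for Hist1h2ad (1.75, the others from 1.605), Hist1h2ao (1.84, the others from 1.65), the variant median (-0.066) and H2afb2 (-0.415). PBS replicate 4 stood apart for H2afb2 (-0.415) and the clustered median (0.020), and OVA replicate 2 for H2afb1 (0.32). The other arrays of the group all read 0 for H2afb1, H2afb2, H2afy3, H3f3b and the H1, clustered and variant medians, where any other value is flagged. All values are log2 ratios.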

How the results depend on the processing

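No called value among the 24 members with their own test rerun changed sign under the scaling, filter, probe and left-out-array settings. Calls were lost with quantile-normalised ratios for H2afv (adjusted p = 0.18), H2afy (0.0856), Hist1h1e (0.0688), Hist1h2ba (0.0765), Hist1h2bc (0.152) and Hist2h2aa1 (0.0506), with the mean over probes for Hist1h1e (0.22), and with the replicate number as a block for Hist1h2bc (0.0983), all by limma. H3f3a, which did not pass with all arrays, passed without PBS replicate 1 (-0.27, adjusted p = 0.00576). With quantile-normalised ratios, 2 clustered genes were lower, 2 variant genes higher (median 0.093), 1 H2A gene lower (median 0.75) and 0 H2B genes lower (median -0.19). With loess within arrays 1 H2B gene was higher. Without the dimmest 0.25 of probes, and with members of mean intensity at least 0.1 (a setting chosen after seeing the data), 1 H2A gene was lower and the H2A median was 1.39; the second setting gave a variant median of 0.18. The mean over probes gave an H2A median of 0.94, and 4 H2A probes were lower with each probe tested. OVA arrays alone against 0 gave 4 lower variant genes (median -0.083), beside 6838 lower of all 25874 symbols tested there. At least 1.5-fold (1268 higher and 1124 lower of all symbols) was reached by 13 higher and 3 lower clustered genes, 2 higher and 0 lower variant genes, 1 lower H2A gene and 0 lower H2B genes. OVA ratios turned in sign gave medians of -0.080 (clustered), 0.078 (variant), -1.14 (H2A) and 0.33 (H2B), 4 lower variant genes, 2 higher and 13 lower H2A genes, and 11 higher and 0 lower H2B genes. In channel 2 alone all counts were 0 (limma, 2 clustered genes and 1 variant gene at an unadjusted p under 0.05), with medians of -0.062 (clustered), -0.11 (H2A) and -0.0063 (H2B). In channel 1 alone 13 clustered genes and 2 variant genes were higher (medians -0.12 and -0.068), 2 H2A genes higher and 13 lower (-1.28), and 9 H2B genes higher and 0 lower (0.32). Leaving out 1 array gave 0 to 1 higher H2B genes and a variant median of -0.059 to 0.080. The replicate number as a block gave 3312 higher and 4378 lower symbols. It gave 17 higher and 16 lower clustered genes, 13 higher H2A genes and 11 lower H2B genes. Whether the numbers pair the arrays could not be told. The cause of these shifts was not tested. The step of 0.01 limits the 24 members of mean intensity under 0.1. Of these, 3 were higher and 4 lower, beside 17.3% higher and 23% lower of all symbols.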
